A study of Mus musculus with 7 samples.

Results

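The globin genes of the mouse are 8 of the 32285 genes listed in the data, chosen by gene symbols that start with Hba- or Hbb-. The alpha globin genes are Hba-a1, Hba-a2 and Hba-x, and the beta globin genes are Hbb-bs, Hbb-bt, Hbb-bh1, Hbb-bh2 and Hbb-y. They were measured in 7 droplet libraries of mouse liver, made with a kit that tags the 3′ end of each transcript with a unique molecular identifier (UMI). The labels describe every library as liver of a murine hepatoblastoma model and give no groups, ages or sexes. The design text speaks of nuclei and the labels of cells. The study bred mice in which Cre, driven by the albumin enhancer and promoter, switches on a CAG-driven human MYC transgene on the C57BL/6J background, with littermates that lacked Cre, the MYC transgene or both as controls. The libraries NEJ723, NEJ709, NEJ687 and NEJ634 are called tumors in its text, which also speaks of healthy controls without naming their libraries. These names were not used to group libraries, the genotype of single libraries is not in the labels, and the description of NEJ709 carries the name NEJ634. No test between groups was therefore made, and each library is given with its own value, the median and the range. Ranges printed in parentheses after a value are 95% limits from exact methods, Clopper-Pearson for a share and Poisson for a level, and they hold counting error alone.

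Haemoglobin, the oxygen carrier of red blood cells, joins alpha-type and beta-type globin chains around haem. Primitive red cells of the yolk sac use Hba-x (zeta globin), Hbb-y (epsilon-y) and Hbb-bh1 (beta-h1), while definitive red cells, made first in the fetal liver and later in bone marrow and spleen, use Hba-a1 and Hba-a2 with Hbb-bs and Hbb-bt. Hbb-bh2 is a little-studied beta-like gene that is grouped here with the embryonic genes by its place in the locus. In the positions of GENCODE M21 (build GRCm38), the beta genes lie on the minus strand of chromosome 7 between 103812524 and 103853216, in the order Hbb-bt, Hbb-bs, Hbb-bh2, Hbb-bh1 and Hbb-y. The alpha genes lie on the plus strand of chromosome 11 between 32276400 and 32297298, in the order Hba-x, Hba-a1 and Hba-a2. The embryonic Hbb-y and Hba-x stand first in the direction of transcription, and each member has 3 exons in its first listed transcript. The build behind the single-cell counts is not given in the sources used here, but all 8 gene identifiers matched that annotation.

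Promoter sequences from RefSeq (GRCm38.p6) were found for 7 of the 8 members, the exception being Hbb-bh1. The 120 bases before the start are shown for 2 adult and 2 embryonic genes because the levels of these genes differ by orders of magnitude in the same cells. Capitals mark 4 motifs searched on both strands: the CACCC box, the CCAAT box, the GATAA sequence bound by GATA factors, and the TATAA box.
Hba-a2, chr11:32296372-32296491, plus strand: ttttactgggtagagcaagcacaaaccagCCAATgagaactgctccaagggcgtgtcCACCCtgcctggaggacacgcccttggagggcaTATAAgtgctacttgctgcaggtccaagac
Hba-x, chr11:32276480-32276599, plus strand: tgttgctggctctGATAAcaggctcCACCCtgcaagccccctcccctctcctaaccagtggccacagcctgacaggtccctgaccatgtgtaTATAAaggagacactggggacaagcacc
Hbb-bs, chr7:103827929-103828048, minus strand: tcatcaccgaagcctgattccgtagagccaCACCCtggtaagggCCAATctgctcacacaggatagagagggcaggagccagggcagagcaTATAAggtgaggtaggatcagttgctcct
Hbb-y, chr7:103853208-103853327, minus strand: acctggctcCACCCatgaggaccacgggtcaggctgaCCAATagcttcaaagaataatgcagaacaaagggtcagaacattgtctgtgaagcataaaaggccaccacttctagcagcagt

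CACCC stood in 6 of the 7 promoters and in 31.7% of 32841 promoters of the same length. CCAAT stood in 5 of 7 against 21.3%, TATAA in 5 of 7 against 11.8%, and GATAA in 1 of 7, that of Hba-x, against 10.5%. The window of Hbb-bh2 held none of these 4 motifs. The windows of Hba-a1 and Hba-a2 were alike in 117 of 117 aligned bases, so 1 of them is shown, and those of Hbb-bs and Hbb-bt in 91 of 120.

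The transcripts of the adult genes are also close copies, which limits how far their reads can be told apart. Hba-a1 and Hba-a2 were identical in 537 of 538 aligned bases, the 1 mismatch lying 123 bases from the 3′ end of Hba-a1, and 359 of its 610 windows of 90 bases were also found in Hba-a2. Hbb-bs and Hbb-bt were identical in 582 of 630 aligned positions, and 341 of 539 windows of 90 bases were shared. Shares within these pairs are therefore uncertain, since they depend on how the authors' counting placed reads that fit both copies. In the last 300 bases the alpha pair had 1 mismatch and the beta pair 34. Reads may thus be lost to a different extent in the 2 pairs, so levels of alpha against beta genes are uncertain too. Hbb-y and Hbb-bh1 were identical in 454 of 624 aligned positions and shared 0 such windows.

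Total UMIs ranged from 40214395 in NEJ638 to 132485391 in NEJ634, and globin UMIs made up 5.58% (NEJ654) to 26.6% (NEJ709) of them. After cell calling and removal of likely doublets, 6716 (NEJ638) to 16963 (NEJ634) cells per library were analysed. Between 130 and 327 of them per library had a barcode that was also a cell in another library, and leaving these out moved the alpha, Hba-a1 and Hbb-bs shares of erythroid cells by at most 0.0796 percentage points and the embryonic level by at most 0.460 per 1000000 globin UMIs. NEJ709 stood apart: 12948 of its 14026 cells fell in 1 unnamed cluster with 27.5% haemoglobin UMIs. The liver marker Alb ranged from 144.8 UMIs per 1000000 UMIs of analysed cells (CPM) in NEJ723 to 6644 in NEJ638. Erythroid cells were taken as cells of erythroid-like clusters, clustered without globin genes, or cells with at least 50% haemoglobin UMIs, and numbered 6167 in NEJ723, 3447 in NEJ687, 1518 in NEJ638, 855 in NEJ677, 418 in NEJ709, 409 in NEJ654 and 231 in NEJ634. In NEJ638, NEJ677 and NEJ654 most of these cells came from 1 unnamed cluster with 86.9% haemoglobin UMIs, whose leading genes were pancreatic exocrine genes such as Ctrb1 and Clps: it gave 1348 of the 1518 in NEJ638, 808 of the 855 in NEJ677 and 362 of the 409 in NEJ654, beside 1053 of the 6167 in NEJ723. The part of this cluster in the results was not tested.

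The adult genes exceeded the embryonic genes by several orders of magnitude in every library. Over all barcodes, Hbb-bs had 49324347 UMIs, Hba-a1 12133890, Hbb-bt 10371363 and Hba-a2 7494658, while Hbb-y had 1501, Hba-x 232, Hbb-bh1 61 and Hbb-bh2 4. UMIs count 3′ tags, so these levels need no scaling by transcript length. Within erythroid cells Hbb-bs was above Hba-a1 in 7 of 7 libraries, Hba-a1 above Hba-a2 in 7 of 7 and Hba-a2 above Hbb-y in 7 of 7, by intervals that did not overlap. The intervals do not hold the loss of reads that fit both copies of a pair, so the order among the adult genes is uncertain. Hbb-bt and Hba-a2 could not be ranked across libraries, since Hbb-bt was above Hba-a2 in 4 libraries, below it in 2 and overlapping in 1. Among the rare genes, Hbb-y was above Hba-x in 3 libraries and overlapping in 4, and Hba-x and Hbb-bh1 overlapped in 6 of 7.

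Over all analysed cells, the level of Hbb-bs was 213588 CPM in NEJ723, 164598 in NEJ709, 150370 in NEJ687, 82102 in NEJ677, 80484 in NEJ638, 59420 in NEJ654 and 27942 in NEJ634. Hba-a1 ranged from 6609 in NEJ634 to 52149.5 CPM in NEJ723, with a median of 29958. NEJ634 was lowest and NEJ723 highest for all 4 adult genes. Erythroid cells made up 231 of 16963 analysed cells in NEJ634 and 6167 of 12445 in NEJ723. The level did not follow this share throughout, since NEJ709, next to NEJ723 in Hbb-bs, had 418 erythroid cells among 14026. Hbb-y was at 7.92 CPM (7.13 to 8.77) in NEJ709, 4.62 (4.05 to 5.24) in NEJ687, 3.85 (3.35 to 4.4) in NEJ723, 1.13 (0.871 to 1.45) in NEJ634, 0.919 (0.525 to 1.49) in NEJ638, 0.0379 in NEJ677 from 1 UMI, and 0 of 19524321 UMIs in NEJ654. Hbb-y was thus highest in NEJ709, NEJ687 and NEJ723, and at or near 0 in NEJ654 and NEJ677. In NEJ709, 308 Hbb-y UMIs stood in 300 cells that were not erythroid, against 58 in erythroid cells. The low-UMI barcodes of NEJ709, described below, stood at 7.74 CPM (3.34 to 15.2), overlapping its cells. Hba-x was found in 5 libraries, with at most 55 UMIs in one (NEJ709), Hbb-bh1 in 3 libraries with at most 14 UMIs (NEJ723), and Hbb-bh2 in NEJ723 alone, with 2 UMIs.

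**Figure D1:**
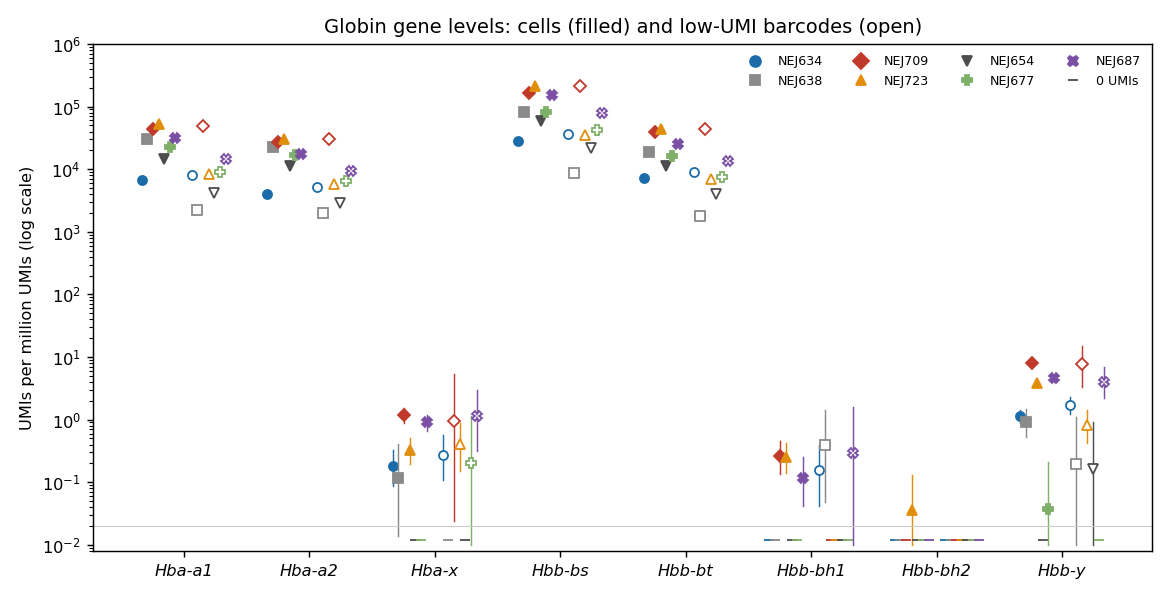
UMIs per 1000000 UMIs (CPM, log scale) of each globin gene in the analysed cells (filled) and the low-UMI barcodes (open) of each library, with exact 95% Poisson intervals; short dashes at the bottom mark 0 UMIs. The 4 adult genes sit orders of magnitude above the 4 embryonic genes, and cells lie below low-UMI barcodes for the adult genes in NEJ634 and NEJ709. In NEJ709 this turns when low-UMI barcodes that are cells in another library are left out.

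Free globin RNA is common in tissue suspensions, so the levels in cells were set beside those of low-UMI barcodes, ranked 45000 to 90000 by UMI count, which mostly hold no cell. Of the 56 pairs of gene and library, cells were above the low-UMI barcodes in 21, below in 8 and overlapping in 27. Against barcodes of 10 to 100 UMIs instead, cells were above in 13, and against low-UMI barcodes without those that are cells in another library they were above in 25. Over all genes with any UMI, 26.1% of pairs were above and 8.09% below by the same rule. Each adult gene was above in 5 of 7 libraries and below in NEJ634 and NEJ709, but in NEJ709 each was above once the cells of another library were left out of the low-UMI barcodes. Hbb-bs, for example, was at 213588 CPM in the cells of NEJ723 against 35707 in its low-UMI barcodes, and at 164598 in the cells of NEJ709 against 211813, or 151318 without cells of another library. In NEJ634 these barcodes held 210 to 952 UMIs each, a range that reaches past the 500 UMIs from which cells were called. Hbb-y was above in 1 library only, NEJ723, at 3.85 (3.35 to 4.4) against 0.823 (0.425 to 1.44) CPM, and overlapped in 6. Hba-x, Hbb-bh1 and Hbb-bh2 overlapped in all 7 libraries, so over whole libraries their level was not distinguishable from that of the low-UMI barcodes at this depth.

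The balance of alpha to beta globin differed between libraries by more than counting error. Hba- genes made up 34.8% of the globin UMIs of erythroid cells in NEJ638 (34.75 to 34.87), 29.15% in NEJ677 (29.10 to 29.20), 26.57% in NEJ654 (26.50 to 26.63), 24.24% in NEJ723 (24.22 to 24.26), 23.96% in NEJ709 (23.90 to 24.01), 21.64% in NEJ687 (21.62 to 21.67) and 20.99% in NEJ634 (20.90 to 21.09). NEJ638 was highest and NEJ634 lowest, with a median of 24.2%, and beta exceeded alpha by 1.87 to 3.76 times in UMIs. These ratios compare 3′ tags of different transcripts and are not ratios of protein chains. They also depend on how many reads of each pair were lost because they fit both copies, and the part of this in the beta excess was not tested. In named classes other than erythroid the alpha share was again highest in NEJ638, at 33.6%, and there lowest in NEJ687.

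Within the alpha pair, Hba-a1 took the larger share in the erythroid cells of every library. It made up 63.7% of Hba-a1 and Hba-a2 UMIs in the erythroid cells of NEJ687, 63.4% in NEJ723, 61.5% in NEJ709, 60.6% in NEJ634, 57.3% in NEJ677, 56.7% in NEJ638 and 55.8% in NEJ654. NEJ638, NEJ654 and NEJ677 were the 3 lowest, and their values did not overlap those of the other 4 libraries. Within the beta pair, Hbb-bs took 85.6% in NEJ687, 84.1% in NEJ654, 83.6% in NEJ677, 83.2% in NEJ723, 81.2% in NEJ709, 81.04% in NEJ634 and 80.96% in NEJ638, so the same 3 libraries did not stand together. Expressed as shares of all globin UMIs, Hbb-bs ranged from 52.8% (NEJ638) to 67.1% (NEJ687), Hba-a1 from 12.7% (NEJ634) to 19.7% (NEJ638), Hbb-bt from 11.3% (NEJ687) to 14.98% (NEJ634) and Hba-a2 from 7.86% (NEJ687) to 15.1% (NEJ638).

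Composition also moved with erythroid stage. Erythroid cells were staged by the haemoglobin share of their UMIs (under 5%, 5 to 20%, 20 to 50%, 50 to 80% and at least 80%), which rises as red cell precursors mature. This sets the total globin of each stage, so only the make-up of globin is read across stages. Cells under 20% (early) and of at least 80% (late) were compared in the 3 libraries with at least 20 cells of each, NEJ634, NEJ723 and NEJ687. NEJ654 and NEJ677 had no erythroid cells under 50%, and their cells therefore enter only the last 2 stages. The stages also differed in how cells qualified as erythroid: all 23 NEJ638 cells of 20 to 50% lay in erythroid-like clusters against 41 of its 1186 late cells, and in NEJ634 these numbers were 28 of 28 and 26 of 76. In NEJ723 815 of 1491 late cells and in NEJ687 752 of 1085 lay in such clusters. UMIs per cell differed as well: an erythroid-like cluster of 22.2% haemoglobin UMIs had a median of 8829, and one of 81.8% had 4750. The Hbb-bs share also varied with UMIs per cell, as given below. The part of either in the differences between stages was not tested.

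The Hba-a1 share of adult alpha UMIs was lower late than early in 3 of 3 libraries. It was 73.8% (72.3 to 75.3) early and 58.2% (57.8 to 58.6) late in NEJ634, 78.5% (78.2 to 78.7) and 59.8% (59.7 to 59.9) in NEJ723, and 76.9% (76.7 to 77.2) and 58.4% (58.3 to 58.5) in NEJ687. Cells of 20 to 50% were above cells of at least 80% in 5 of 5 libraries with both, as in NEJ638 with 69.1% against 56.4%. The larger part of the step lay between 20 to 50% and 50 to 80%: NEJ709 had 70.6% in the former and 60.7% in the latter. At the late stage alone the share was 55.8% in NEJ654, 56.4% in NEJ638, 57.3% in NEJ677, 58.2% in NEJ634, 58.4% in NEJ687, 59.3% in NEJ709 and 59.8% in NEJ723. Libraries were closer to each other there than over all erythroid cells. NEJ654, NEJ638 and NEJ677 were still the 3 lowest, without overlap with the others.

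The Hbb-bs share of adult beta UMIs went the other way and was higher late than early in 3 of 3 libraries. It went from 68.3% (67.4 to 69.2) to 83.6% (83.4 to 83.7) in NEJ634, from 77.2% (77.0 to 77.3) to 83.3% (83.3 to 83.4) in NEJ723, and from 83.6% (83.5 to 83.7) to 87.3% (87.3 to 87.4) in NEJ687. The change was thus larger in NEJ634 than in NEJ687, whose early cells already had a high share. Cells of at least 80% were above cells of 20 to 50% in 5 of 5 libraries, but above cells of 50 to 80% in only 3 of 7 and below them in 4 of 7. The alpha share of globin was lower late than early in 3 of 3 libraries by a small step, as in NEJ723 with 25.1% early and 23.3% late. In NEJ638 it was higher late, 34.9% against 30.8% at 20 to 50%.

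**Figure D2:**
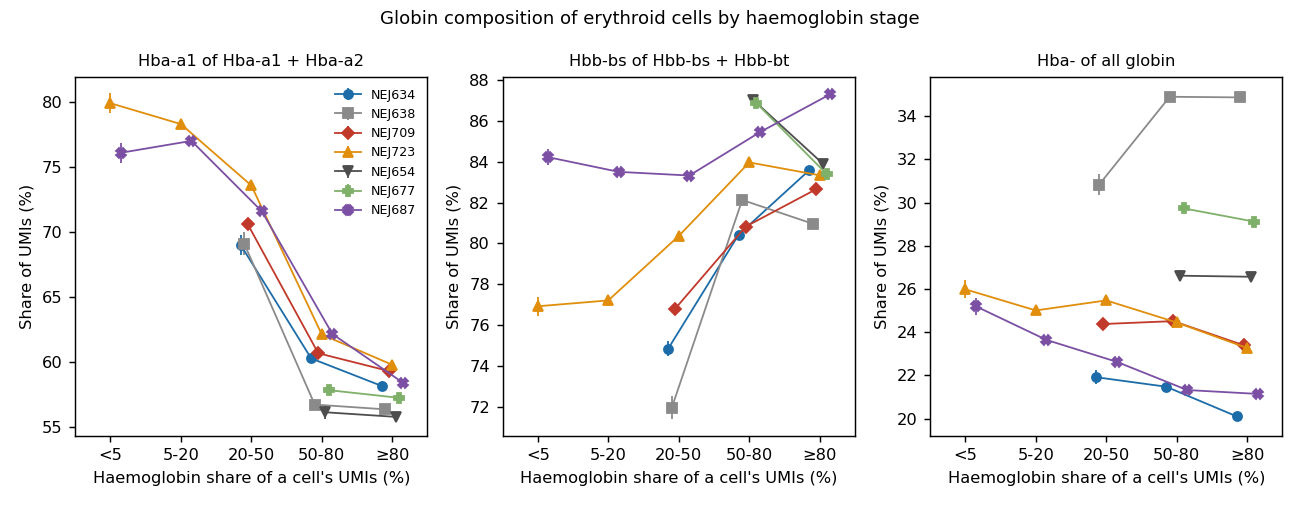
Share of Hba-a1 in the adult alpha pair, of Hbb-bs in the adult beta pair and of Hba- genes in all globin UMIs (percent) of erythroid cells, by haemoglobin share of the cell's UMIs; points are sums over at least 20 cells of a library and bars are exact 95% intervals. Hba-a1 falls from 73.6% at 20 to 50% to 62.1% at 50 to 80% in NEJ723, and every library with both stages falls there.

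Adult beta composition also varied with the size of a cell's library, a split that was chosen after seeing the data. Among cells with at least 50% haemoglobin UMIs, Hbb-bs made up 95.3% (95.2 to 95.4) of adult beta UMIs in the 198 cells of NEJ677 with under 2000 UMIs, 90.2% in the 252 cells of 2000 to under 5000 UMIs and 80.7% (80.6 to 80.7) in the 405 larger cells. NEJ654 showed 93.6%, 92.1% and 81.4% in the same order. The step was smaller in NEJ723 (89.1%, 84.1% and 82.9%) and NEJ687 (90.7%, 87.6% and 85.2%), and the summed share was higher in the smallest than in the largest bin with 20 cells in each of the 7 libraries. By the median of single cells NEJ634 went from 81.3% to 80.5%, a difference well within its quartiles. In NEJ677, 156 of the 198 smallest cells had a share of at least 95%, against 0 of the 405 largest. The Hba-a1 share changed little over the same bins, from 58.3% to 57.1% in NEJ677 and from 60.3% to 61.8% in NEJ723.

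**Figure D3:**
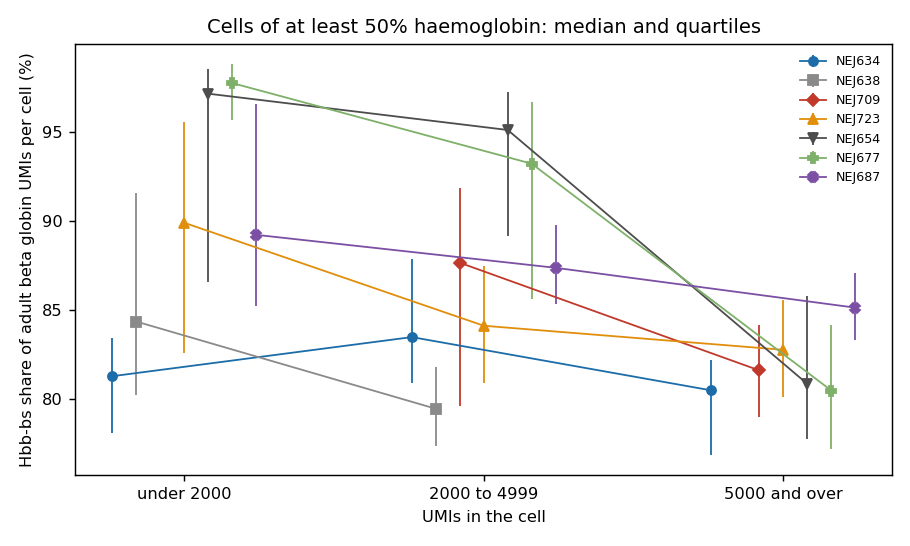
Hbb-bs share of adult beta globin UMIs (percent) per cell against the UMIs in the cell, for cells of at least 50% haemoglobin; points are medians and bars quartiles over the cells of a library. The medians of NEJ654 and NEJ677 lie at 97.2% and 97.8% under 2000 UMIs and at 80.8% and 80.5% from 5000 UMIs.

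The embryonic genes made up a minute part of the globin of erythroid cells. Summed over Hba-x, Hbb-bh1, Hbb-bh2 and Hbb-y, they reached 27.8 (21.3 to 35.5) UMIs per 1000000 globin UMIs in NEJ709, 23.2 (20.5 to 26.2) in NEJ687, 18.7 (9.96 to 32.0) in NEJ634, 12.2 (10.7 to 13.9) in NEJ723 and 5.88 (3.29 to 9.70) in NEJ638. None was found in NEJ654 (0 of 1702472 globin UMIs) or in NEJ677 (0 of 3454204). Taking a count of 0 to allow 3 counts, which is less than the exact limit, gives up to 1.76 and 0.869 per 1000000. The interval of NEJ634 overlapped those of NEJ709, NEJ687 and NEJ723, and NEJ654 and NEJ677 lay below the lower bound of every other library. NEJ654 and NEJ677 had no erythroid cells under 50% haemoglobin. Among cells of at least 80% the intervals of all 7 libraries overlapped, with 0.982 (0.268 to 2.52) per 1000000 in NEJ687 as the highest value. The value was 0 in NEJ654 (exact upper limit 2.33), NEJ638 (1.73), NEJ677 (1.13) and NEJ634 (12.6). Over all erythroid cells, the difference from NEJ638 rested on 1 cell with 11 Hbb-y UMIs. Without it NEJ638 stood at 1.57, under the 1.76 that 3 counts would give in NEJ654. In NEJ687, NEJ634, NEJ709 and NEJ723 low-UMI barcodes were not lower beyond the intervals. On the same scale they stood at 47.2 (28.4 to 73.7) in NEJ687, above its erythroid cells. They stood at 36.6 (27.6 to 47.7) in NEJ634, 25.9 (11.9 to 49.2) in NEJ709 and 21.8 (12.9 to 34.5) in NEJ723, overlapping the erythroid cells. Over all erythroid cells of these libraries the embryonic share of globin was therefore not distinguishable from, or was below, that of barcodes outside cells. These intervals treat UMIs as independent, whereas a few cells hold many of them, so they are too narrow. Hbb-y gave most embryonic UMIs of these cells, with 187 in NEJ723 and 212 in NEJ687, beside 17 and 46 of Hba-x and 14 and 6 of Hbb-bh1.

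Early cells carried more embryonic globin for each globin UMI. The level was 667 (443 to 964) per 1000000 globin UMIs under 5% haemoglobin in NEJ723, 211 (168 to 262) at 5 to 20%, 31.5 (24.5 to 39.8) at 20 to 50%, 3.69 (2.60 to 5.09) at 50 to 80% and 0.749 (0.204 to 1.92) at 80% or more. NEJ687 gave 443 (270 to 683), 189 (153 to 232), 18.3 (13.2 to 24.6), 23.4 (19.1 to 28.3) and 0.982 (0.268 to 2.52). The early values rested on few cells, 109 embryonic UMIs in 23 of 343 cells in NEJ723 and 114 in 12 of 343 cells in NEJ687. Late cells were lower than early cells in 2 of 3 libraries and overlapped in NEJ634, where the early cells had 0 embryonic UMIs among 13699 globin UMIs. Cells of at least 80% were lower than cells of 20 to 50% in 5 of 5 libraries. In NEJ634 and NEJ638 this rested on 1 cell each, without which the values at 20 to 50% were 47.8 (9.86 to 139.7) and 29.8 (0.755 to 166.1) and overlapped the late stage.

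The staging itself raises the denominator of this ratio. Per 1000000 non-haemoglobin UMIs the embryonic genes stood at 24.9 early and 3.75 late in NEJ723, where late was lower, and at 20.3 early and 6.71 late in NEJ687, where the intervals overlapped. By this measure late was lower than early in 1 of 3 libraries, and cells of at least 80% were lower than cells of 20 to 50% in 2 of 5 and overlapped in 3. NEJ687 departed from a steady course, since its 1260 cells of 50 to 80% held 103 embryonic UMIs in 97 cells, or 43.5 per 1000000 non-haemoglobin UMIs, above its early and its late stage.

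**Figure D4:**
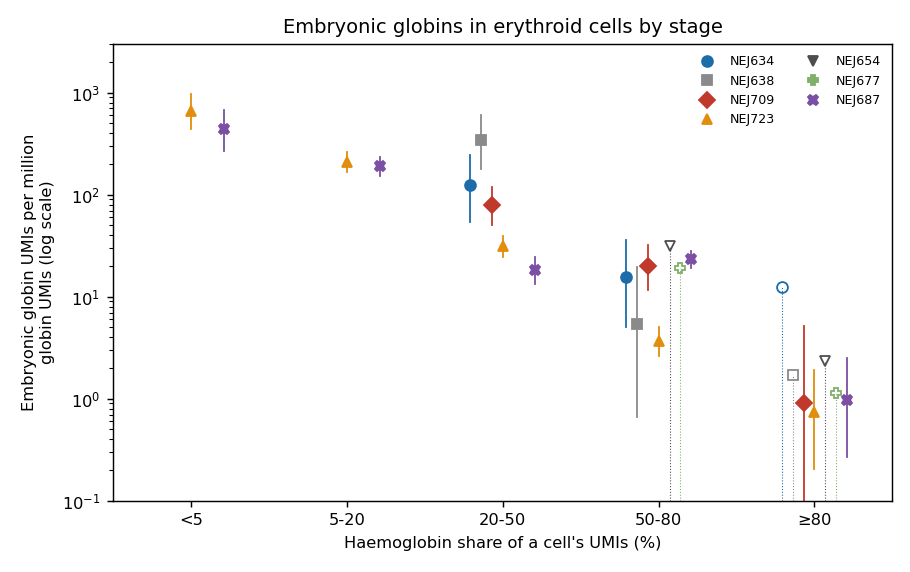
Embryonic globin UMIs per 1000000 globin UMIs (log scale) in erythroid cells by haemoglobin share of the cell's UMIs, with exact 95% Poisson intervals; open symbols with dotted lines stand at the upper bound where no embryonic UMI was found. Values fall from 667 to 0.749 in NEJ723 across the 5 stages, and NEJ654 and NEJ677 have no embryonic UMI at any stage.

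A small set of cells held many of the Hbb-y UMIs. The 22 cells with at least 5 Hbb-y UMIs, in 5 libraries, carried 274 of the 899 Hbb-y UMIs of analysed cells (30.5%). There were 11 such cells in NEJ723, 6 in NEJ687, 3 in NEJ709 and 1 each in NEJ634 and NEJ638, and 20 of the 22 counted as erythroid. The cell with most Hbb-y, in NEJ687, held 39 Hbb-y UMIs beside 1963 of Hbb-bs, 673 of Hba-a1, 564 of Hbb-bt and 226 of Hba-a2. The next, in NEJ723, held 34 beside 962 of Hbb-bs and 319 of Hba-a1. Adult globins thus predominated in these cells too: embryonic UMIs were 0.153% to 11.3% of their globin, with a median of 0.617%, the highest in a cell with 53 globin UMIs in all.

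These cells carried Hbb-y mostly without the other embryonic genes. None of the 22 held an Hba-x UMI and 1 held Hbb-bh1, with 2 UMIs beside 29 of Hbb-y. Their haemoglobin shares lay between 0.121% and 47.8%, so none was a late cell. They held a median of 14411 UMIs, against library medians of 1950 (NEJ654) to 4450 (NEJ687) for analysed cells. A count of 5 is reached more easily in cells with many UMIs, and the part of this was not tested. Conversely, a cell of NEJ687 held 16 Hba-x UMIs and 0 Hbb-y, and a cell of NEJ723 held 3 Hbb-bh1 and 0 Hbb-y. Over all 72640 analysed cells Hba-x was seen in 116 cells, of which 7 held another embryonic gene, and Hbb-y in 602. With genes this rare few shared cells are met in any case, so the counts do not show that the genes avoid each other. Without the 22 cells, early NEJ723 cells were at 67.0 (44.5 to 96.9) embryonic UMIs per 1000000 globin UMIs and early NEJ687 cells at 48.5 (31.7 to 71.1), still above their late cells. The NEJ687 value then overlapped that of its low-UMI barcodes. NEJ638 at 20 to 50% went from 343 to 29.8, the latter from 1 UMI.

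**Figure D5:**
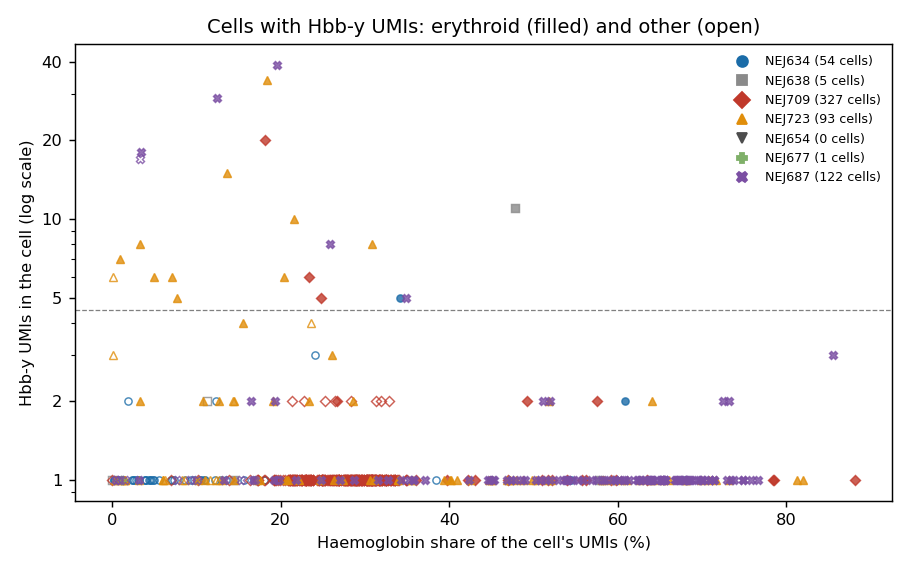
Hbb-y UMIs (log scale) against haemoglobin share (percent) of each analysed cell with any Hbb-y UMI, erythroid cells filled and others open; the dashed line separates the 22 cells with at least 5 UMIs. All 22 lie under 48% haemoglobin, and 327 of the 602 cells plotted are of NEJ709.

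Outside erythroid cells, most cells with Hbb-y held a single UMI. NEJ709 had 308 Hbb-y UMIs in 300 cells that were not erythroid, at most 2 in a cell, and NEJ634 had 52 in 48 cells. The erythroid cells of these libraries had 58 and 11, but also fewer globin UMIs, 2268484 against 10439062 outside them in NEJ709 and 694802 against 1848143 in NEJ634. NEJ723 had 26 Hbb-y UMIs among 750298 globin UMIs outside erythroid cells and 187 among 18013527 inside, and NEJ687 had 28 among 283905 outside and 212 among 11375333 inside. For each globin UMI, Hbb-y was thus not scarcer outside erythroid cells in these 4 libraries, although 17 of the 28 in NEJ687 and 6 of the 26 in NEJ723 stood in 1 cell each. The 1 analysed cell of NEJ677 with a Hbb-y UMI was not erythroid.

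Adult globin UMIs were found in every named cell class. Over libraries, haemoglobin took a median of 0.829% of the UMIs of named cells other than erythroid, with 0.490% in NEJ677 as the lowest and 2.58% in NEJ723 as the highest value. This median was 1.72% without removal of doublets and 0.481% when taken over the medians of single cells. The 0.829% leaves out cells of at least 50% haemoglobin, which count as erythroid, so the cut itself lowers it. For T/NK-like cells the median over libraries was 2.03% with such cells and 1.15% without them. In T/NK-like cells under 50% haemoglobin, which should lack it, the share ran from 0.411% in NEJ634 to 2.66% in NEJ709, and the median cell held 0.116% in NEJ634 to 0.499% in NEJ723, so few cells carried much of it. These shares lay below those of the low-UMI barcodes in 6 libraries, as in NEJ709 with 2.66% against 33.5%, and in NEJ638 were close to them, at 1.45% against 1.47%, or 1.31% without cells of another library. In NEJ638 the share was 3.09% with the 11 T/NK-like cells of at least 50% haemoglobin included, which is above the low-UMI barcodes. The alpha share in T/NK-like cells under 50% haemoglobin was 34.6% in NEJ638, 28.5% in NEJ654, 25.92% in NEJ677, 25.86% in NEJ709, 23.3% in NEJ723, 22.8% in NEJ634 and 21.1% in NEJ687. NEJ638 was highest here as in erythroid cells, while the order of the others differed in part. The highest share among the named classes other than erythroid-like was that of cholangiocyte-like cells in NEJ687, at 42.9%, where the median cell had 3.41%. Of these 238 cells 79 held at least 50% haemoglobin and so counted as erythroid, and the share of the other 159 was 2.45%. The unnamed NEJ709 cluster had a median share of 26.8% with an SD of 3.91 over cells, and mitochondrial genes led it.

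The theta globins Hbq1a and Hbq1b, alpha-like genes that lie beside the adult alpha genes, were the 2 of 5 other globin-family genes found that reached 50 units in early or late cells. Units here are UMIs per 1000000 non-haemoglobin UMIs, and a gene counted as higher or lower from 2-fold in NEJ723 and NEJ687. NEJ634, the third library with both stages, was left out because 50 units came to fewer than 10 UMIs in its late cells. With 1 pool per stage there is no test. Of all tested genes, 14.1% were higher and 62% lower late in NEJ723, and 16.1% and 64.4% in NEJ687. Hbq1b was at 21.01 early and 774.5 late in NEJ723 and at 19.6 and 513.6 in NEJ687. Hbq1a was at 0.228 (1 UMI) and 98.3 in NEJ723 and at 0.534 (3 UMIs) and 68.8 in NEJ687. Both theta genes were thus higher late in both libraries, and Cygb, Mb and Ngb had 47, 1 and 5 UMIs in erythroid cells and were not tested.

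Known activators and repressors of globin genes were lower late for the most part, as most tested genes were. Of 9 tested in each library, 0 were higher and 7 lower in NEJ723 and 2 higher and 5 lower in NEJ687, with medians of -2.29 and -1.09 on the log2 scale against -1.42 and -1.65 for all tested genes. These counts stand beside the 62% and 64.4% of all tested genes that were lower. Bcl11a, a repressor of embryonic globins, was at 57.8 early and 2.81 (3 UMIs) late in NEJ723 and at 68.0 and 3.36 (2 UMIs) in NEJ687. Klf1, an activator of adult beta globin, went from 237.7 to 40.3 in NEJ723 and from 344.8 to 144.4 in NEJ687. Sox6, also a repressor of embryonic globins, went from 235.5 to 48.7 and from 218.4 to 102.4, and Zbtb7a, another globin repressor, from 111.9 to 20.6 and from 128.3 to 13.4.

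The members of the erythroid activator complex did not all move alike. Gata1 was at 114.0 early and 22.5 late in NEJ723, and at 122.1 and 67.1 in NEJ687, where the fold stayed under 2. Tal1 was at 184.1 and 19.7 in NEJ723 and at 150.4 and 78.9 in NEJ687. Lmo2, their partner, was at 295.5 and 199.5 in NEJ723 and at 249.7 and 580.8 in NEJ687, where it was higher late. Nfe2, which binds the globin locus control region, was higher late in NEJ687 only (40.6 and 134.3, beside 62.1 and 74.9 in NEJ723). Ldb1 was lower late in NEJ723 (66.0 and 13.1) and under 50 units at both stages in NEJ687, and Nfia was lower late in NEJ687 (50.9 and 6.71, the latter from 4 UMIs) and under 50 units in NEJ723. Myb, Igf2bp3, Igf2bp1, Hic2 and Nr2f2 were below 50 units in both stages, with 146, 159, 42, 37 and 87 UMIs over all erythroid cells.

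Among haem synthesis genes, 3 of 12 were higher and 4 lower late in NEJ723, and 6 and 2 in NEJ687. Beside each list here, 14.1% of all tested genes were higher and 62% lower in NEJ723, and 16.1% and 64.4% in NEJ687. Median log2 folds of the haem genes were -0.192 and 0.849, against -1.42 and -1.65 for all tested genes. Alas2, the first enzyme of haem synthesis in red cells, went from 302.6 to 9388 in NEJ723 and from 273.2 to 15204.5 in NEJ687. Red cell membrane genes gave 4 of 11 higher and 3 lower in NEJ723, and 6 and 1 in NEJ687. The late erythroid list was higher in 7 of 7 tested genes of both libraries, and the early list had 1 tested gene, Vamp5, which was lower in both.

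Over the 73 pools of a cell class in a library, the genes whose level followed the summed adult globins most closely were Isg20 (Pearson r = 0.80), Ube2o (0.79), Tspo2 (0.78), Cldn13 (0.78) and Mkrn1 (0.74). Without the 5 erythroid-like pools these values were 0.55 to 0.63. Over the 23 stage pools of erythroid cells, the genes most like the summed embryonic globins were Pkhd1l1 (0.95), Lancl2 (0.95), Gm49797 (0.94), Ampd3 (0.93) and Mphosph9 (0.92). These pools share libraries and depth, 6 of the 23 had no embryonic UMI, and in the pool with the highest embryonic level, NEJ638 at 20 to 50%, Lancl2, Gm49797 and Mphosph9 rested on 3 UMIs each. That pool held 12 embryonic UMIs. Pkhd1l1 (16 UMIs), Ampd3 (8 UMIs), Gm49797 and Mphosph9 also had their highest levels there. Gm49797 and Mphosph9 reached 51.6 units, just over the 50 needed in some pool to be compared. The genes named were the highest of 9674 (adult) and 5691 (embryonic) compared, the fixed lists left out, so r is no test.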

How the data were processed

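Single-cell RNA of 7 mouse liver libraries was analysed. What the authors deposited is, for each library, a matrix of UMI counts over genes and all listed barcodes, neither normalized nor filtered for cells. Per the file headers they came from Cell Ranger 4, while the submitters' notes name Cell Ranger 6.0 and the study's methods count introns. The genome build of these counts is not given in the sources used here. Genes of the members and lists, and the tests, were chosen with earlier results of these data known.

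Cells were called from the raw counts: those above a limit (the UMI count at percentile 99 of the 3000 largest, divided by 10), then barcodes of at least 500 UMIs (at most 20000 tested) whose profile differed from the low-UMI profile in a Monte Carlo test (10000 draws, adjusted p of 0.01). That limit left 48463 barcodes untested in NEJ634, 16117 in NEJ723 and 2814 in NEJ709. Cells over 20% mitochondrial UMIs were left out. Cells with the highest scores from simulated doublets were removed at 0.8% per 1000 cells, 5.70% to 16.2% of a library. Cells were clustered on 2000 variable genes without globins, 40 components and 15 neighbours by Leiden at resolution 1, and 46 clusters were named from 110 markers of 16 classes (mean log2 fold of at least 1.5, lead of 1, 3 markers up 2-fold at 10 units).

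Levels are UMIs per 1000000 UMIs of a pool of cells, reported from 20 cells. As 0 groups are given in the labels, libraries were not tested against each other, and values carry exact 95% intervals. A count of 0 allows 3 counts. Named genes were all 8 members, every gene of the globin-family and activator lists with at least 10 UMIs in erythroid cells, and the 5 genes most like the adult and the embryonic sums by Pearson correlation of log2(units + 1). Folds were taken on units + 1 among genes of at least 50 units in early or late cells. Ahsp was not matched and has no value.

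Alternatives changed the calling rule, doublet removal, shared barcodes, the definition of erythroid cells, ambient subtraction, weighting of cells, stage edges, the low-UMI barcodes and the clustering resolution. Leaving out cells of at least 5 Hbb-y UMIs, leaving out the NEJ709 cluster and the split by UMI total were chosen after seeing the data. Calling, folds and likeness were tested on simulated data. Work was done in Python 3.11 (SciPy 1.17.1, NumPy 2.4.6, igraph 0.11.9, numba 0.67.0, scikit-learn 1.9.0, pandas 2.3.3 and matplotlib 3.10.9).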

Additional observations from a re-analysis of the deposited data

Results flagged for a closer look

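Barcodes that were not kept as cells also carried a globin signal. Among barcodes of 10 to 99 UMIs outside cells, those with at least 80% haemoglobin UMIs numbered 2227 in NEJ709, 1623 in NEJ654, 1397 in NEJ677, 1039 in NEJ687, 984 in NEJ634, 174 in NEJ723 and 56 in NEJ638. These were flagged because the comparisons of cells do not use them and their counts exceed the 3 that a count of 0 would allow. Of these barcodes, 2152, 1555, 1212, 885, 973, 135 and 49, in the same order, had the sequence of an erythroid cell of another library, against 1.11% to 21.4% of all barcodes of that size. The other library was the partner within 1 of 3 sets, NEJ634 with NEJ638, NEJ709 with NEJ723, and NEJ654 with NEJ677 and NEJ687, while at most 3 such barcodes matched any library outside the set. Both non-cell embryonic UMIs of NEJ654 and the 1 of NEJ677 stood at barcodes that are cells with embryonic globin UMIs in NEJ687, 1 of them the cell with 39 Hbb-y UMIs and 1 the cell with 16 Hba-x UMIs. How these barcodes came to be shared was not tested.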

How the results depend on the processing

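The labels give no groups, so libraries could not be paired between groups. Early and late cells, and cells and low-UMI barcodes, were compared within each library. Values are medians over libraries or counts, which cannot show a direction that turns in 1 library. Against low-UMI barcodes the adult genes of NEJ709 did turn, from below to above, without cells of another library. Over the main results, alternatives moved the value in 25 cases and kept it in 24. A share or level counted as moved outside the interval of its main value, and a count beyond a set ratio. With cells taken by the percentile rule alone, the alpha share of globin was 25.7%, the Hba-a1 share 60.9%, the Hbb-bs share 81.1%, the embryonic level 19.98 per 1000000 globin UMIs and the haemoglobin share of named other cells 0.745%. Under that rule 1 library could be compared by stage, and it had a lower embryonic share late (1 of 1, beside 2 of 3). Without doublet removal the Hba-a1 share was 62.1%, the Hbb-bs share 83.2% and the haemoglobin share of other cells 1.72%. With erythroid cells taken by at least 20% haemoglobin alone the 4 erythroid values were 25.7%, 61.5%, 83.4% and 6.42 per 1000000, and the comparison of stages could not be made because no early cells remain. With ambient globin subtracted the alpha share was 24.2% and the Hbb-bs share 83.2%. With each cell weighted equally the values were 24.3%, 62.2%, 83.4% and 21.2 per 1000000. Without cells of at least 5 Hbb-y UMIs the embryonic level was 6.39 per 1000000. With early under 40% and late from 60%, 5 of 5 libraries had a lower embryonic share late, and per non-haemoglobin UMI 1 of 3 did. Against barcodes of 10 to 100 UMIs, 13 pairs of gene and library were above. The haemoglobin share of other cells was 0.841% at resolution 2 and 0.481% as the median of single cells. Leaving out barcodes shared by libraries kept each of these values within its interval. Depth limits the embryonic genes most, since Hbb-bh1 and Hbb-bh2 rest on 32 and 2 UMIs in all analysed cells, and the labels allow no estimate of spread between animals.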
